A study of Mus musculus with 6 samples.

Results

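Transcripts of the active demethylation pathway, the TET dioxygenases Tet1, Tet2 and Tet3 with the DNA glycosylase Tdg, were the subject in mouse ES cells that lose DNA methylation after a change of medium. The members were chosen by these 4 names. The 3 Tet genes were analysed, of 12626 genes in all, and Tdg was not analysed here. RNA-seq was done on WT J1 ES cells, a male line, in 2 biological replicates per day. At D0 the cells grew in serum with LIF. At D6 and D13 they had been kept for that many days in 2i+vitC, a medium with inhibitors of Gsk3 and MEK and with vitamin C. The base medium and supplements of 2i+vitC also differ from those of D0, and no serum is listed for it. All of these changed together. Every sample was WT and received LIF, and no serum samples of D6 or D13 were analysed here, so that medium and time in culture cannot be told apart.

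TET enzymes oxidise the methyl group of 5-methylcytosine, first to 5-hydroxymethylcytosine and then to formyl- and carboxylcytosine. The reaction uses iron, oxygen and oxoglutarate, and vitamin C keeps the iron in its reduced form. Thymine DNA glycosylase, the product of Tdg, removes the most oxidised forms, and base excision repair puts an unmethylated cytosine in their place. In ES cells Tet1 and Tet2 are the usual TET transcripts, while Tet3 is best known from the oocyte and from neural cells.

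The shared identity of the 3 members lies in their catalytic domain, where a histidine and an aspartate bind the iron. The stretch of coding sequence around this His-x-Asp motif is given for each gene, since it shows both what the 3 genes share and how far their transcripts can be told apart. The capitals mark the 9 bases that code for the motif. They were read from GENCODE vM21 protein-coding transcripts (GRCm38, minus strand): exon 11 of Tet1 at chr10:62814442-62814501, exon 10 of Tet2 at chr3:133471346-133471405 and exon 10 of Tet3 at chr6:83373200-83373259.
Tet1: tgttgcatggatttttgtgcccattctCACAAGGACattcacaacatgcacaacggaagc
Tet2: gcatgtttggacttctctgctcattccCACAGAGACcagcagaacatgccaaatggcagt
Tet3: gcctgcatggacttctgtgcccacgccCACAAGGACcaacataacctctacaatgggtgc
Over these 60 bases, Tet1 and Tet2 had the same base at 39 positions, Tet1 and Tet3 at 42, and Tet2 and Tet3 at 41. Even in this stretch, no pair of the genes was identical. The 3 coding sequences were 2039, 1920 and 1803 residues long.

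Tet1 lies on chromosome 10 (62804570 to 62908996), Tet2 on chromosome 3 (133463679 to 133545139) and Tet3 on chromosome 6 (83362373 to 83459084), all on the minus strand of GRCm38. Their longest annotated transcripts were 14369, 9179 and 10904 bases. GENCODE lists 10, 10 and 5 transcripts of the 3 genes, and the values per gene do not separate them. On the same strand, the annotated spans of 5430434F05Rik and Mir6374 share 3553 and 107 bases with the span of Tet3. Those of Gm48353 and Gm26479 share 1871 and 106 bases with the span of Tet1. Strand does not separate these. On the opposite strand, the span of B230319C09Rik shares 6568 bases with that of Tet3. The span of the antisense RNA Gm42567 shares 43 bases with that of Tet2. All these spans include introns, and the overlap of exons was not computed. None of the overlapping genes had a value of its own under these names. The libraries were stranded, but the strand setting of the counting is not given in the sources used here.

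All 3 genes had GC-rich promoters. The 250 bases upstream of each start in the RefSeq table (GRCm38.p6) are given with every CG in capitals, because CG is the dinucleotide that DNA methylation and TET enzymes act on.
Tet1 (chr10:62887325-62887574, minus strand): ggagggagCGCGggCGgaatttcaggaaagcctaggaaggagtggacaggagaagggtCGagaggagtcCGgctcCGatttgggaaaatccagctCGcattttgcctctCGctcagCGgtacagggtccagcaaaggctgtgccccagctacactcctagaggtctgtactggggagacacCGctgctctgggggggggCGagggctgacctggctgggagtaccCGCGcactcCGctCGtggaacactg
Tet2 (chr3:133544391-133544640, minus strand): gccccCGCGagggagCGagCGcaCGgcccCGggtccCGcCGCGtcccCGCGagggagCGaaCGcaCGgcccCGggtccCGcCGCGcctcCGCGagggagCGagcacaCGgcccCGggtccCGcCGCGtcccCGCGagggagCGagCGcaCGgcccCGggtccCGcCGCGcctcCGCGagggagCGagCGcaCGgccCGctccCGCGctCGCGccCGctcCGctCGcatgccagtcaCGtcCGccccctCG
Tet3 (chr6:83441679-83441928, minus strand): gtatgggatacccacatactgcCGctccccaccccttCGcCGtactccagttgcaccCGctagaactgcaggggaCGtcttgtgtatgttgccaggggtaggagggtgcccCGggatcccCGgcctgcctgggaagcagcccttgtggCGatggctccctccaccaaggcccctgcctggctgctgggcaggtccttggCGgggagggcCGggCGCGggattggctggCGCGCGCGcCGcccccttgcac
The Tet2 window held 51 CG, more than 99.9% of 32851 mouse promoter windows, whose median was 6. The Tet1 and Tet3 windows held 15 and 17, more than 72.7% and 76.5% of windows. GGGCGG, searched on both strands, was found in all 3 windows and in 32.7% of all windows. CCAAT was found in Tet3 alone (33.8% of all windows), and CACGTG in none of the 3 (6% of all windows). These are matches of letters. The RefSeq start of Tet1 is not the only one, as another protein-coding transcript starts further upstream. The GENCODE genes Tet2 and Tet3 also reach upstream of their windows, to 133545139 and 83459084, so these windows do not cover every annotated start.

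Between 73230745 and 83688345 reads per sample fell on genes, so that 3 reads were worth 0.0344 to 0.042 CPM. The lowest Tet value, Tet3 at D13, rested on 303 reads. All 10 ES cell markers were measured, and their summed level was 4280 to 4310 CPM at D0, 4700 to 4910 at D6 and 3560 to 4480 at D13. Markers of other cell types were lower: in D0, D6 and D13 order, 3 of 6 fibroblast markers summed to 10.1 to 29.7, 4.86 to 5.11 and 5.5 to 5.62 CPM, and 3 of 5 neural markers to 156 to 209, 103 to 124 and 97.8 to 98.4 CPM. Primitive endoderm markers (5 of 8) lay between 315 and 441 CPM on every day, trophoblast markers (2 of 5) between 37.5 and 94.1, and mesoderm markers (2 of 5) between 4.94 and 8.69. The part of these cells in the levels of the Tet genes was not tested, and in bulk RNA fewer cells of a type and less RNA per cell cannot be told apart.

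Tet1, the main TET gene of ES cells, fell over the 13 days. Its level was 9.25 and 9.33 log2 CPM (read counts scaled to library size) in the D0 replicates, 8.61 and 8.96 at D6, then 7.30 and 8.45 at D13. Both D6 samples lay below both D0 samples, and both D13 samples below both D6 samples. The D13 replicates, however, differed by 1.15 on the log2 scale, more than the D6 and D13 means did, and replicate 1 was the lower.

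In the limma fit of all 6 samples, Tet1 fell by 1.41 on the log2 scale from D0 to D13 (SE 0.35, 95% interval -2.21 to -0.61, limma adjusted p = 0.012), a 2.66-fold lower level. The D0 to D6 step was -0.50 (interval -1.30 to 0.30, adjusted p = 0.35) and the D6 to D13 step -0.91 (interval -1.71 to -0.11, adjusted p = 0.16), neither past the threshold of 0.05. Without D0 replicate 1 or D0 replicate 2 the D0 to D13 change was -1.45 (adjusted p = 0.051) and -1.37 (adjusted p = 0.06), just short of the threshold. Without D13 replicate 1 it was -0.84, and adjusted p over 15 alternatives ranged from 0.0015 to 0.06.

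Tet2, which codes for a TET enzyme without the CXXC DNA-binding domain of its relatives, followed another course. The 2 D0 samples were far apart, at 5.84 and 6.94 log2 CPM, the D6 samples were at 6.70 and 6.95, and the D13 samples at 5.02 and 5.58. D0 and D6 overlapped, whereas both D13 samples lay below all other samples. From D0 to D6 the difference was 0.44 (interval -0.38 to 1.26, limma adjusted p = 0.44), and it was -0.11 without D0 replicate 1.

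Tet2 fell by 1.09 from D0 to D13 (SE 0.36, interval -1.91 to -0.27, adjusted p = 0.039), or 2.13-fold. This call was lost without D0 replicate 2 (-0.54, adjusted p = 0.21), without D13 replicate 1 (-0.81, adjusted p = 0.21) and without a mean-variance trend (adjusted p = 0.069), in a range of 0.0038 to 0.21 over 15 alternatives. The D6 to D13 step was larger, at -1.53 (SE 0.36, interval -2.35 to -0.71), and lay at the threshold with an adjusted p of 0.052. It passed in 7 of 15 alternatives, and over the 15 the adjusted p ranged from 0.0046 to 0.26.

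Tet3 had the largest D0 to D13 fold change of the 3, although the intervals of the members overlapped and their differences were not tested. Its level was 4.40 and 4.44 log2 CPM at D0, 3.27 and 3.69 at D6, then 2.09 and 2.91 at D13. The 3 days did not overlap, and each day was lower than the one before. From D0 to D13 Tet3 fell by 1.92 (SE 0.34, interval -2.69 to -1.15, limma adjusted p = 0.0024), which is 3.78-fold. This was the only Tet change that passed in all 15 alternatives, with adjusted p from 0.00035 to 0.015. Both single steps were of like size, -0.94 from D0 to D6 (interval -1.71 to -0.17, adjusted p = 0.079) and -0.98 from D6 to D13 (interval -1.75 to -0.21, adjusted p = 0.12), and neither passed.

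**Figure D1:**
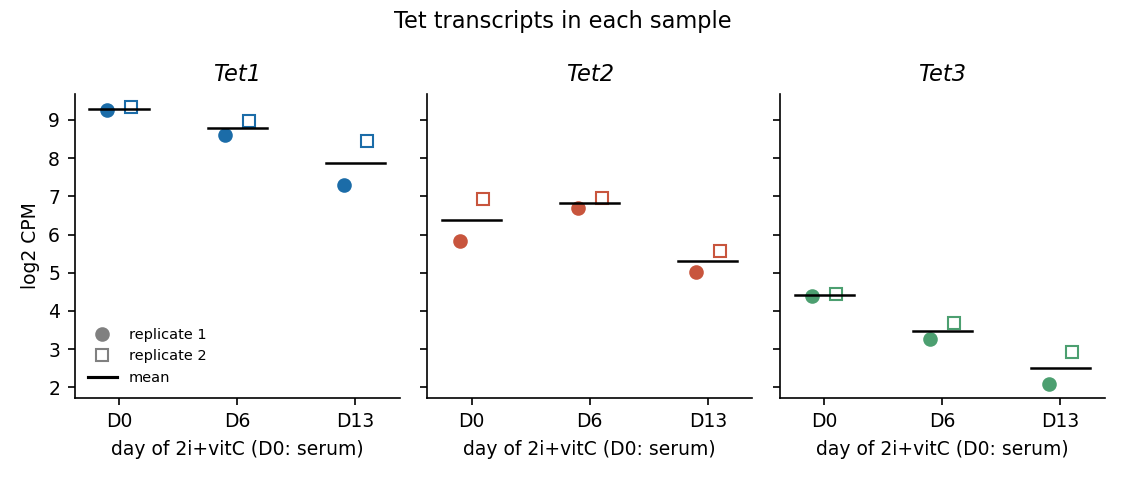
Level of each Tet gene in every sample (log2 CPM on a common vertical axis) against the day of 2i+vitC, with replicate 1 as filled circles, replicate 2 as open squares and the mean of a day as a line. Tet1 and Tet3 step down from day to day without overlap, Tet2 is level or higher at D6 and lowest at D13, and the D13 replicates of Tet1 lie 1.15 apart.

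From D0 to D13, 3 of 3 Tet genes were thus lower at an adjusted p under 0.05, beside 21.5% of all 12928 genes and families called lower and 20.6% called higher. From D0 to D6, 0 of 3 passed, beside 10.2% called lower and 13.7% called higher. From D6 to D13, 0 of 3 passed, beside 2.78% called lower and 1.39% called higher. These shares are all at an adjusted p under 0.05. At an unadjusted p under 0.05, Tet3 alone was lower from D0 to D6, and 3 of 3 from D6 to D13. The share of all rows at the unadjusted threshold was not counted, so these unadjusted counts have no background to be set against. Days that did not overlap, with the later day lower, were found for 2 of 3 Tet genes from D0 to D6 (34.4% of all rows, and 34% with the later day higher), for 3 of 3 from D6 to D13 (31.3%, and 29.4% higher) and for 3 of 3 from D0 to D13 (35.1%, and 33.7% higher). Such a separation was thus common among all rows. No Tet change reached the 4-fold minimum that the study set for genes, while 9.88% of rows from D0 to D6, 13.5% from D0 to D13 and 1.15% between D6 and D13 passed the study's rule, with 2-fold for families. The 3 comparisons share samples and are not independent of each other.

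The Tet genes are long, and the level of long genes differed between samples. From D0 to D13, the median log2 fold change was 0.74 for the 455 genes with the shortest transcripts, 0.01 for a middle class of 4759 genes and -0.53 for 682 genes over 8000 bases. The median of all genes was -0.01. Among the 682 long genes, 29.9% were called lower and 11.6% higher from D0 to D13, 14.2% and 9.68% from D0 to D6, and 1.76% and 0.147% from D6 to D13. The same gradient was seen within a day: at D13, replicate 1 was 0.74 below replicate 2 in the median of long genes and 0.62 above it in the shortest genes. The median of long genes in replicate 1 minus replicate 2 was -0.30 at D0 and -0.14 at D6. Each Tet gene was also lower in replicate 1 than in replicate 2 on each day (9 of 9).

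The Tet genes were set beside these long genes. From D0 to D13, 17.6% of long genes had a lower fold change than Tet1, 26.5% than Tet2 and 10.9% than Tet3. From D6 to D13 the values were 10.9%, 3.5% and 9.8%, and from D0 to D6 they were 34.8%, 80.6% and 17%, so that Tet2 was then above most long genes. The 2 D13 samples differed in this respect. In D13 replicate 1, the median long gene was -0.88 from its D0 mean, while Tet1, Tet2 and Tet3 were at -1.99, -1.37 and -2.33. In D13 replicate 2, where the median long gene was only -0.10 from D0, the 3 genes were at -0.84, -0.81 and -1.51.

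**Figure D2:**
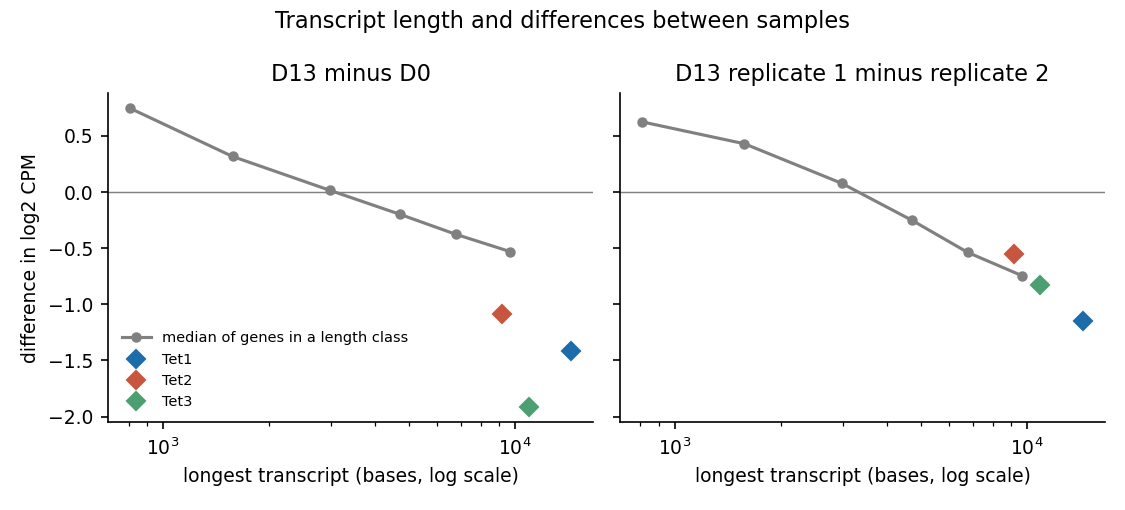
Difference in log2 CPM (vertical axis) against the longest transcript of a gene in bases (horizontal, log scale), between D0 and D13 on the left and between the D13 replicates on the right, with the median of each length class as grey points and the Tet genes as diamonds. Long genes are lower at D13 than at D0 and lower in replicate 1 than in replicate 2. The Tet genes lie below the grey line on the left, and nearer to its end on the right.

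An adjustment that removed a smooth trend with transcript length from each sample, chosen after seeing the data, made the decreases smaller. Tet1 was then at -0.91 from D0 to D13 (SE 0.19, limma adjusted p = 0.0053) and Tet3 at -1.42 (SE 0.24, adjusted p = 0.0019). The change of Tet2 was -0.61 (SE 0.26, adjusted p = 0.088) and no longer passed. From D6 to D13 it was Tet2 that passed, at -1.26 (adjusted p = 0.03), while Tet1 at -0.62 (adjusted p = 0.076) and Tet3 at -0.70 (adjusted p = 0.098) did not. From D0 to D6, Tet2 was at 0.65 (adjusted p = 0.096), Tet3 at -0.72 (adjusted p = 0.052) and Tet1 at -0.29 (adjusted p = 0.29). In this fit, 24.9% of genes were called lower and 23.3% higher from D0 to D13, 14.9% and 15.7% from D0 to D6, and 5.29% and 3.88% from D6 to D13. The part of transcript length in the deposited differences was not tested beyond this.

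**Figure D3:**
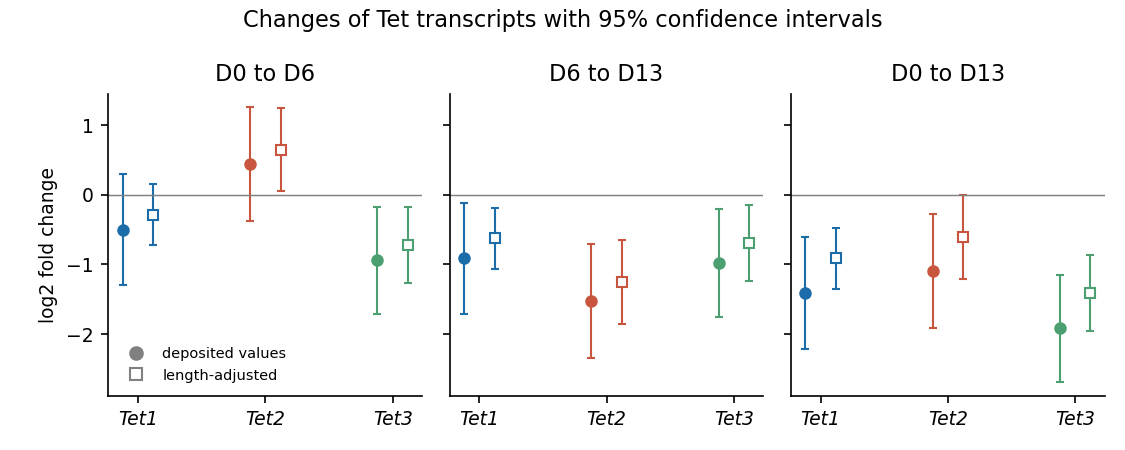
Log2 fold change of each Tet gene (vertical axis) for the 3 comparisons of days, with 95% confidence intervals from the limma fit, on the deposited values (filled circles) and after adjustment for transcript length (open squares). All D0 to D13 changes are below 0. The length-adjusted values lie nearer to 0 for Tet1 and Tet3 in each comparison, and for Tet2 the length-adjusted value is -0.61 from D0 to D13 and 0.65 from D0 to D6.

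Levels of the 3 genes can be compared with each other only per length, for which CPM was divided by the kilobases of annotated exon. Tet1 was at 39.4 and 41.7 CPM per kilobase at D0, 25.3 and 32.3 at D6, then 10.2 and 22.7 at D13. Tet2 was at 3.39 and 7.28, 6.17 and 7.35, and 1.93 and 2.83, and Tet3 at 1.27 and 1.30, 0.576 and 0.775, and 0.254 and 0.451. The order Tet1, Tet2, Tet3 held in 6 of 6 samples, and no value of a gene overlapped that of the next gene in the order on any day.

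The summed level of the 3 genes was 47.1 ± 4.38 CPM per kilobase on D0, 36.2 ± 5.89 on D6 and 19.2 ± 9.57 on D13 (SD, n = 2). Tet1 made up 86.2% ± 4.60 of this sum on D0, 79.4% ± 0.646 on D6 and 84.9% ± 3.49 on D13. The share of Tet2 was 7.70% and 14.5% in the D0 samples, 19.2% and 18.2% at D6, and 15.5% and 10.9% at D13. Both D6 samples were thus above all other samples. The share of Tet3 was 2.88% and 2.58% at D0, above the 1.80% and 1.92% at D6 and the 2.05% and 1.74% at D13. With 2 samples a day no exact test of these shares can reach the threshold, and none was made.

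**Figure D4:**
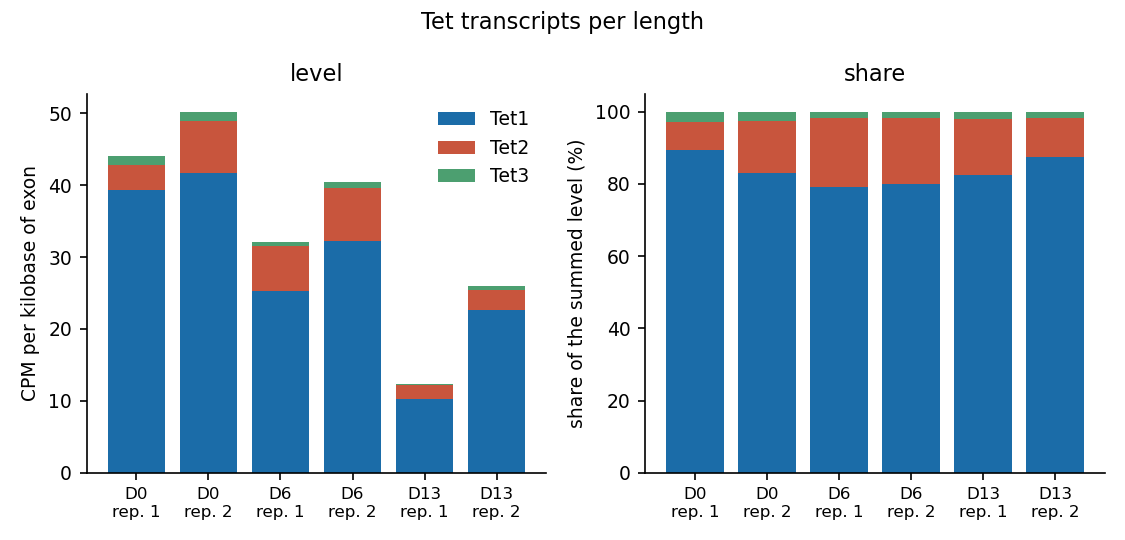
Level of the Tet genes in CPM per kilobase of exon (left, stacked bars) and their share of the summed level in percent (right) in each of the 6 samples. The summed level is highest at D0 (44.0 and 50.2) and lowest in D13 replicate 1 (12.4). Tet1 makes up 79.0% to 89.4% of it in every sample, and the share of Tet2 is largest at D6.

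Genes were then ranked by how closely their course over the 6 samples followed that of a Tet gene, as the root mean square difference of centred log2 CPM among 11258 genes. Nearest to Tet1 were Plagl2, a zinc finger transcription factor (0.0531), Zfp354c (0.0732) and Son, a splicing cofactor of nuclear speckles (0.0772). Among the nearest to Tet2 were Fzd5, a Wnt receptor (0.173), and the stress protein gene Sesn2 (0.175). Nearest to Tet3 were Zfp239 (0.0979), the focal adhesion gene Tns3 (0.112) and the synapsin gene Syn1 (0.116). Fzd5 and Sesn2 were thus further from Tet2 than the genes named for Tet1 and Tet3 from theirs. These are descriptions over 6 samples that share library composition, and they carry no p-value.

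Genes that act before, beside or after the TET enzymes were taken from 6 lists with 79 genes, of which 78 were analysed. From D0 to D13, 21 of 78 were higher and 16 lower (42.1% of all rows were called in either direction), with a median change of 0.03 on the log2 scale. With a sample left out, 11 to 19 were higher and 10 to 19 lower, the fewest higher without either D6 sample and the fewest lower without D0 replicate 1 or D13 replicate 1. Of these 37 calls, 15 held in all 7 settings that left out a sample or adjusted for length. Without a D6 sample, the D0 to D13 fold changes stayed the same and only their p-values moved. How many of the calls among all rows hold in these settings was not counted. From D0 to D6, 6 were higher and 8 lower, beside 23.9% of all rows. From D6 to D13, 0 of 78 passed, while 4.18% of all rows were called. At an unadjusted p under 0.05, 9 were higher and 4 lower, a threshold at which no share of all rows was counted. Beyond the genes past the study's 4-fold rule and the methylation writers, the listed genes named here were chosen after their values were seen.

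DNA glycosylases and base excision repair enzymes remove modified bases, not only those made by TET enzymes. Genes that act on the products of TET enzymes were not separated from the rest. Of 20 such genes, 7 rose and 1 fell from D0 to D13 (20.6% and 21.5% of all rows), with a median of 0.10. The 7 included the uracil glycosylases Smug1 (1.14, SE 0.23, adjusted p = 0.0043) and Ung (0.77) and the Nei-like glycosylase Neil1 (1.08), which acts on oxidised bases. Lig3, which seals single-strand nicks, was the 1 that fell (-1.16, SE 0.30, adjusted p = 0.014), and was at -0.74 without D13 replicate 1 (adjusted p = 0.061, in a range of 0.0042 to 0.073). Of the 8 calls, those of Smug1 and the endonuclease gene Nthl1 held in all 7 settings. From D0 to D6, 0 of 20 passed, beside 23.9% of all rows called. At an unadjusted p under 0.05, 3 were higher, a threshold at which no share of all rows was counted. After length adjustment, 8 were higher and 4 lower from D0 to D13 (23.3% and 24.9% of all genes).

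The cofactor supply list held enzymes that make or use oxoglutarate or remove compounds that compete with it, and transporters of vitamin C in its reduced or oxidised form. Of its 17 genes, 10 rose and 2 fell from D0 to D13 (20.6% and 21.5% of all rows), with a median of 0.69, and 8 rose and 1 fell after length adjustment (23.3% and 24.9% of all genes). The calls of Idh1, Idh2, Sdhc, Fh1 and Slc23a1 held in all 7 settings. Idh1, the cytosolic isocitrate dehydrogenase that makes oxoglutarate, was at 6.44 and 6.04 log2 CPM at D0, 8.33 and 8.29 at D6, then 8.29 and 8.21 at D13. It rose by 2.07 from D0 to D6 and was 2.01 above D0 on D13 (SE 0.22, adjusted p = 2e-04). Its mitochondrial relative Idh2 rose by 2.21 over the 13 days (SE 0.34, adjusted p = 0.0013), from 5.51 and 6.51 log2 CPM in its D0 replicates.

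Slc23a1, a sodium-dependent transporter that takes up vitamin C, went the other way. It was at 4.34 and 4.73 log2 CPM at D0, 1.49 and 1.68 at D6, then 1.46 and 1.46 at D13. All 4 samples in 2i+vitC lay far below the D0 samples, and Slc23a1 fell by 2.95 from D0 to D6 and fell by 3.07 from D0 to D13 (SE 0.31, adjusted p = 0.00014). Not all listed transporters fell. Slc23a2 was at -0.20 from D0 to D13 (limma adjusted p = 0.68), with a D13 mean of 6.17 log2 CPM. Slc2a3 rose by 0.84 (limma adjusted p = 0.028), a call that did not hold in all 7 settings, and by 0.58 without D0 replicate 1. The other gene of the list that fell was Slc2a1, a glucose transporter that also carries oxidised vitamin C (-1.20, adjusted p = 0.049). It rested on D0 replicate 1, without which it was at -0.47 (adjusted p = 0.24, in a range of 0.0037 to 0.24), and was at -1.93 without D0 replicate 2.

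Partners and regulators of the TET enzymes moved both ways. Of 15 genes measured, 2 rose and 6 fell from D0 to D13 (20.6% and 21.5% of all rows), with a median of -0.38, and 3 rose and 5 fell after length adjustment (23.3% and 24.9% of all genes). Both that rose on the deposited values are pluripotency factors known to bind TET proteins. Prdm14 rose by 2.43 (SE 0.26, adjusted p = 0.00019) and by 2.76 from D0 to D6, and Nanog rose by 1.37 (adjusted p = 0.0014) and by 2.00 from D0 to D6. The RNA-binding protein gene Lin28a was at 9.35 and 8.82 log2 CPM at D0, 4.66 and 5.72 at D6, then 4.26 and 4.09 at D13, and fell by 4.91 (SE 0.35, adjusted p = 3.1e-05). Zfp281 (-1.57), Hcfc1 (-1.12), Sall4 (-0.71), Uhrf2 (-0.71) and Cul4b (-0.68) were the others. Without D13 replicate 1, the library that was low for long genes, Hcfc1 (8262 bases) was at -0.55 (adjusted p = 0.17, in a range of 0.0047 to 0.17), and it was at -1.69 without D13 replicate 2. Of the 8 calls, those of Prdm14, Nanog, Lin28a and Zfp281 held in all 7 settings.

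The genes that write and keep methylation were set beside the Tet genes, and they did not move alike. The de novo methyltransferases Dnmt3a and Dnmt3b fell by 2.39 (SE 0.25, adjusted p = 0.00018) and 3.70 (SE 0.31, adjusted p = 6.9e-05) from D0 to D13, and their cofactor Dnmt3l by 6.32 (SE 0.39, adjusted p = 2e-05). Most of this was present at D6, where the log2 fold changes of the 3 genes from D0 were -2.41, -3.37 and -4.87. Uhrf1, which brings the maintenance methyltransferase to newly copied DNA, rose by 1.65 (SE 0.22, adjusted p = 0.00054). The maintenance enzyme Dnmt1 itself was at 0.41 (adjusted p = 0.18), and passed after length adjustment at 0.76 (adjusted p = 0.0069, in a range of 0.0069 to 0.45 with that adjustment or a sample left out). The remodeller Hells was at -0.44 (adjusted p = 0.32). Of the 6 genes of this list, 1 rose and 3 fell, beside 20.6% and 21.5% of all rows, and these 4 calls held in all 7 settings.

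Of 11 genes from protein families that read methylated or unmethylated CpG, 0 rose and 4 fell (20.6% and 21.5% of all rows, and 11.6% and 29.9% of genes over 8000 bases), with a median of -0.73. The 4 were Kmt2a (-1.54), a histone methyltransferase with a CXXC domain, Zbtb33 (-1.32), the histone demethylase Kdm2a (-1.17) and Mbd3 (-0.75). This list had the longest median transcript, 5180 bases, and 5 fell after length adjustment (24.9% of all genes). None of the 4 calls held in all 7 settings. Without D13 replicate 1, Kmt2a was at -0.79, Kdm2a at -0.69 and Zbtb33 at -0.80, and without D13 replicate 2, Mbd3 was at -0.42. After length adjustment, Mbd3, with a transcript of 1662 bases, was at -1.14. Kmt2a was then at -1.05, Zbtb33 at -1.03 and Kdm2a at -0.69. Of 9 other oxygenases that use oxoglutarate on nucleic acids, the Alkbh family and Fto, 1 rose from D0 to D13, beside 20.6% of all rows. It was the RNA demethylase Fto (0.62, SE 0.20, adjusted p = 0.035), a call that did not hold in all 7 settings.

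**Figure D5:**
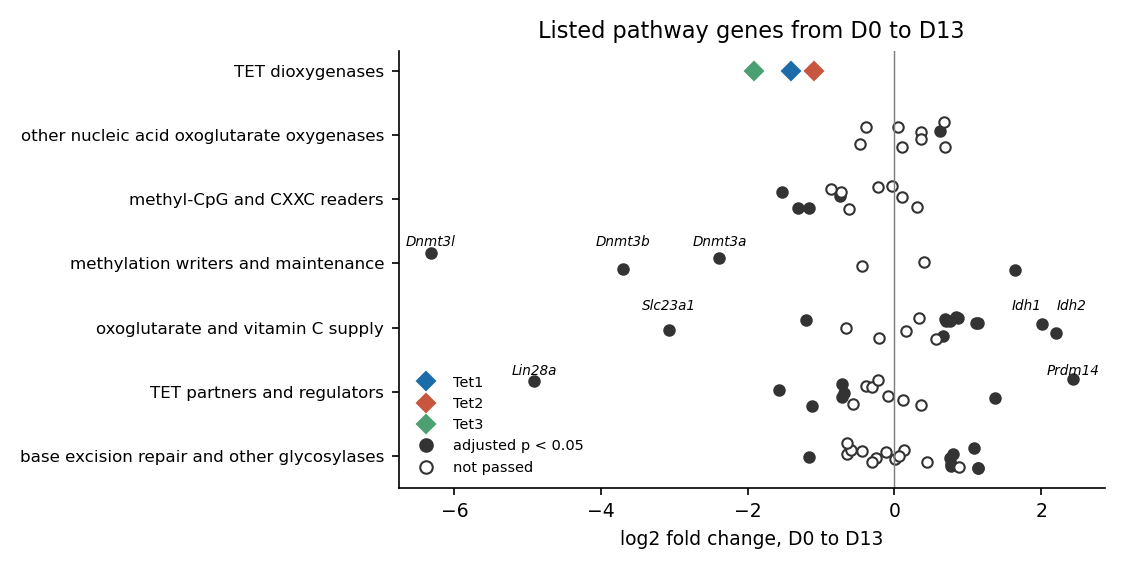
Log2 fold change from D0 to D13 (horizontal axis) of the 3 Tet genes (diamonds) and of the 78 listed genes (circles, 1 row per list), filled where the limma adjusted p is under 0.05. The Tet genes lie between -1.92 and -1.09, to the right of Dnmt3l, Lin28a, Dnmt3b, Slc23a1 and Dnmt3a, and most of the cofactor supply genes lie to the right of 0.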

How the data were processed

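The 6 RNA-seq samples of WT J1 ES cells were grouped by day (D0, D6, D13) as labelled, 2 replicates each. The authors mapped reads with TopHat2 2.0.6 onto mm10, counted genes with HTSeq 0.6.1 and, after mapping with Bowtie 1.0.0, transposon families, normalized both together with edgeR (TMM) and deposited voom log2 CPM. 100% of gene values lay within 0.01 of a whole number of reads plus 0.5, which gave the depth. The 12928 rows (12626 genes, 302 families) were tested with limma 3.58.1 (R 4.3.3), a mean per day, a mean-variance trend and Benjamini-Hochberg adjustment. Changed means an adjusted p under 0.05. The fit was tested on simulated D0 to D13 data with the same spread for all rows. It called 16.4% of genes with a log2 change of 1, 92.5% with 2, 100% with 3 and 0.1% of unchanged rows. Changes near 1 on the log2 scale can thus be missed at that spread. Real rows differ in spread, so these shares are not those of the Tet or listed genes. Tables and figures used Python 3.11.15, numpy 2.4.6, pandas 2.3.3 and matplotlib 3.10.9.

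Members and lists were chosen with earlier results of these data known. The rule for named genes took the members, listed genes past the study's 4-fold rule (up to 4 per list and comparison), the methylation writers and the 3 genes nearest to each member, of which 1 is not reported here. Further listed genes were named after their values were seen. Lengths are the exons and longest transcripts of GENCODE vM21 on GRCm38, whereas the authors counted on RefSeq; 11479 genes (90.9%) had a length. Alternatives were log2(CPM + 1), a filter at a mean log2 CPM of 0, no trend, fits of 2 days, a replicate block, centring on the median gene, each sample left out and, chosen after seeing the data, removal of a spline of transcript length with 4 degrees of freedom. An SD rests on 2 values. P-values measure the spread between the replicates, which the study calls biological.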

Additional observations from a re-analysis of the deposited data

How the results depend on the processing

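Over all alternatives, Tet1 and Tet3 kept their direction in each comparison, and Tet2 turned only from D0 to D6, to -0.11 without D0 replicate 1. Tet2 from D6 to D13 passed with log2(CPM + 1) (-1.50), in a fit of the 2 days (-1.53), after centring (-1.52) and after length adjustment (-1.26), and Tet2 from D0 to D13 did not without a trend (-1.09) or after length adjustment (-0.61). Tet3 from D0 to D6 passed in a fit of the 2 days (-0.94). With a sample left out, the first step, the second step and the whole course ranged from -0.68 to -0.33, -1.49 to -0.34 and -1.99 to -0.84 for Tet1, from -0.11 to 0.99, -1.81 to -1.25 and -1.64 to -0.54 for Tet2, and from -1.15 to -0.72, -1.39 to -0.57 and -2.33 to -1.51 for Tet3. Tet1 and Tet3 passed from D6 to D13 without D13 replicate 2 (-1.49 and -1.39), Tet2 without either D0 sample (-1.53), and Tet3 from D0 to D6 without either D13 sample (-0.94). Where a sample is left out, the lone sample of that day is assumed to vary like the others.

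Listed genes higher and lower ranged, with a sample left out, from 4 to 10 and 5 to 11 (D0 to D6), 0 to 1 and 0 to 5 (D6 to D13), and 11 to 19 and 10 to 19 (D0 to D13). The lowest D0 to D6 counts came without D6 replicate 1, and the 5 without D13 replicate 2. From D0 to D13, 11 were higher without either D6 sample and 12 without D13 replicate 1, and 10 were lower without D0 replicate 1 or D13 replicate 1. In fits of the 2 days, 10 were higher from D0 to D6, 10 from D0 to D13 and 1 from D6 to D13; without a trend, 10 were lower from D0 to D13; after length adjustment, 2 were higher and 3 lower from D6 to D13. Among single listed genes, Dnmt3a from D6 to D13 turned to -0.14 without D6 replicate 1 and -0.21 without D13 replicate 2 (range -0.21 to 0.27), Dnmt3b to 0.086 without D6 replicate 2 (range -0.75 to 0.086), and Hells to 0.17 (D0 to D6, without D0 replicate 1, range -0.60 to 0.17) and 0.15 (D6 to D13, without D13 replicate 1, range -0.60 to 0.15), none of them called. The cause was not tested for any of these.

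Per kilobase of the longest transcript instead of all exons, the shares at D0, D6 and D13 were 79.1%, 69.7% and 77.1% for Tet1, 17.3%, 28.0% and 20.4% for Tet2 and 3.57%, 2.32% and 2.45% for Tet3; with CPM + 1, Tet3 was at 2.02% (D6) and 2.23% (D13). With a sample left out, they ranged over the single values of that day: 82.9 to 89.4, 79.0 to 79.9 and 82.4 to 87.4 for Tet1, 7.70 to 14.5, 18.2 to 19.2 and 10.9 to 15.5 for Tet2, and 2.58 to 2.88, 1.80 to 1.92 and 1.74 to 2.05 for Tet3.

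The replicate numbers were not taken to pair the samples, as the replicate deviations correlated over genes at -0.13 (D0 and D6), 0.33 (D6 and D13) and 0.14 (D0 and D13). Replicate 1 was the lower for each Tet gene on each day (9 of 9, not independent), and also for the median of long genes on each day. With the replicate number as a block, Tet2 from D6 to D13 (-1.53, adjusted p = 0.0046) and Tet3 from D0 to D6 (-0.94, adjusted p = 0.042) passed, and 1 listed gene was higher and 1 lower from D6 to D13. The block changed no other Tet call.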
